A study of Mus musculus with 12 samples.

Results

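The 9 genes described here mark the muscular coat of blood vessels and were followed through sorted heart cells, as 9 of the 48526 genes listed for each library. The 4 smooth muscle markers were *Myh11*, *Acta2*, *Tagln* and *Cnn1*, and the 5 pericyte markers were *Rgs5*, *Pdgfrb*, *Cspg4*, *Kcnj8* and *Notch3*. They were chosen by symbol after *Myh11* had been seen lower in KO VMs than in WT VMs. For that reason the values of all 9 genes between KO and WT VMs, and those of *Myh11* wherever KO VMs enter, are descriptions without a test. The cells came from adult mice, either *Ncam-1* WT or *Ncam-1* KO, a null line kept on a C57BL/6 background and crossed with the *Cntn2*-EGFP reporter, a BAC transgene kept on a CD1 background. Every group carried the reporter and every cell was stained with 50 nM TMRM, a dye of active mitochondria. Dye-positive cells (RFP+) with GFP were collected as Purkinje cells (PCs), the fast-conducting myocytes of the ventricular conduction system, and those without GFP as ventricular myocytes (VMs). The groups were WT PC, KO PC, WT VM and KO VM, with 3 libraries each and 12 in all. The sort was set on cardiomyocytes, and no step selected vascular cells. The sex of the mice and the number of hearts per library are not given in the sources used here, so p-values measure only the spread between these libraries, which may be technical.

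Capillaries and arteries are wrapped by mural cells. Smooth muscle cells surround arteries and arterioles and contract with their own myosin and actin, while pericytes sit on capillaries in close contact with the endothelium and share many genes with smooth muscle. Both kinds of cell are recruited during development by PDGF-B, which endothelial cells release and which PDGFRB receives, and Notch signals from the endothelium to NOTCH3 maintain them. In smooth muscle, serum response factor (SRF) and its partner myocardin bind CArG boxes near the contractile genes. In hearts dissociated for sorting, mural cells are minor neighbours of the cardiomyocytes.

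Promoters of 3 markers are shown, that of *Acta2* because its CArG boxes are the classical sites of SRF, and those of *Rgs5* and *Kcnj8* because these pericyte genes differed most clearly between PCs and VMs. The sequences are the 250 bases before the annotated start on the gene's own strand, 5′ to 3′, from RefSeq on GRCm38.p6. Capitals mark CArG boxes, searched as CC, then 6 bases of which at least 5 are A or T, then GG. *Acta2* lies at chr19:34255374-34255623 on the minus strand, *Rgs5* at chr1:169655251-169655500 on the plus strand and *Kcnj8* at chr6:142571615-142571864 on the minus strand.
Acta2: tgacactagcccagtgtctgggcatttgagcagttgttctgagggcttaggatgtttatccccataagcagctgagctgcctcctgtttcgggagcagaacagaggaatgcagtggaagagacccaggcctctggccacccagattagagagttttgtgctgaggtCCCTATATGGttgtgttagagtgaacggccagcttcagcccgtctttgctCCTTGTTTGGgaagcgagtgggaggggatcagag
Rgs5: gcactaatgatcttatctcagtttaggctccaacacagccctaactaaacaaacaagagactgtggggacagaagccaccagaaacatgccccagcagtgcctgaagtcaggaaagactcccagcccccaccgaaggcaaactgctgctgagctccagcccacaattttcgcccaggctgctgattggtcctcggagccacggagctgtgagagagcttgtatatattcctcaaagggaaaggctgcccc
Kcnj8: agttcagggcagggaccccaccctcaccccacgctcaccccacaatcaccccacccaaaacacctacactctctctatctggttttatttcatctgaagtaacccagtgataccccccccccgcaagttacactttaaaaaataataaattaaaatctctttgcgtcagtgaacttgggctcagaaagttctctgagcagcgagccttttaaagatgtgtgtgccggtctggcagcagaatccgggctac
The *Acta2* boxes begin 84 and 34 bases before the start, and no other of the 6 markers with a promoter entry, out of 9, held one in its window of 250 bases before to 50 after the start. Of all 32851 promoter windows of that length, 9.98% held at least 1. The core letters TGGGAA, searched on both strands as a motif of the Notch effector RBPJ, occurred in *Acta2* 27 bases before the start, where they overlap the second CArG box, and in *Kcnj8* at the first transcribed base, outside the printed stretch. They occurred in 25.6% of the windows. A match is a description of the letters and not a binding site.

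Between 13883427 and 42505705 read pairs per library were counted on genes, of which 1532393 to 6761356 lay outside the mitochondrial genome, so a gene with a few counts is near the limit of detection. Up to 3 counts on a gene in a library counts here as the floor, a limit that covers counting error only. WT PC replicate 2 stood apart, with 63.9% of its pairs left unaligned, where the other 11 libraries had 18.8% to 24.7%. *Ncam1* raw counts were 83, 34 and 116 for WT PCs, 0, 1 and 1 for KO PCs, 6, 0 and 9 for WT VMs and 0 for every KO VM library. The 8 cardiomyocyte markers were present in every group and summed to between 379500 and 689400 normalized counts per library. The 9 mural markers together summed to between 253 and 2492, or 0.00846% to 0.0902% of the counts outside the mitochondrial genome. In such bulk libraries fewer cells of a type and less RNA per cell cannot be told apart.

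Per kilobase of exon, *Rgs5* and *Acta2* led the markers by a wide margin. *Rgs5*, a regulator of G protein signalling, averaged 149 normalized counts per kb over the 12 libraries, from 12.8 to 388. *Acta2*, the smooth muscle alpha-actin, averaged 98.4 per kb, from 54.4 to 208, and its range overlapped that of *Rgs5*. *Kcnj8*, a pore subunit of ATP-sensitive potassium channels, came next at 13.1 per kb. *Myh11*, the smooth muscle myosin heavy chain, averaged 8.36 per kb, *Tagln*, the actin-binding transgelin, 5.29, and *Pdgfrb*, the PDGF-B receptor, 4.17, with overlapping ranges from 0 to 41.3 per kb for *Kcnj8*, *Myh11*, *Tagln* and *Pdgfrb*. *Cspg4*, the proteoglycan NG2, averaged 1.40 per kb, *Cnn1*, calponin, 0.838 and the receptor gene *Notch3* 0.745. Neighbours in this order did not differ beyond their spread over the libraries except at the step from *Acta2* to *Kcnj8*, where the lowest library of *Acta2* at 54.4 lay above the highest of *Kcnj8* at 41.3.

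*Myh11* (ENSMUSG00000018830, GRCm38 chromosome 16, 14194535 to 14291372, minus strand) varied widely within the PC groups. WT PC replicates 1, 2 and 3 had 169, 19.5 and 69.3 normalized counts of *Myh11*, and the KO PC replicates 165, 49.2 and 16.04. The WT VM replicates had 87.2, 71.5 and 58.4, and the KO VM replicates 4.24, 32.1 and 20.8. The highest library exceeded the lowest 8.65-fold among WT PCs and 10.3-fold among KO PCs, but only 1.49-fold among WT VMs. In KO VM replicate 1 the value rested on 3 raw counts, at the floor.

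*Acta2* (ENSMUSG00000035783, chromosome 19, 34241090 to 34255590) showed less contrast between the groups. It stood at 457, 180 and 207 in WT PCs, 299, 121 and 235 in KO PCs, 321, 120 and 185 in WT VMs and 177, 128 and 163 in KO VMs. All 4 groups overlapped, and the highest library of a group exceeded the lowest by 1.38-fold to 2.68-fold. *Tagln* (ENSMUSG00000032085, chromosome 9, 45929619 to 45936058) had 20.9, 1.95 and 6.93 normalized counts for WT PCs, 38.67, 20.2 and 2.67 in KO PCs, 9.38, 7.53 and 5.18 in WT VMs and 4.24, 3.85 and 4.63 in KO VMs. *Cnn1* (ENSMUSG00000001349, chromosome 9, 22099216 to 22109630) had 11, 0 and 0 raw counts for WT PCs, 4, 2 and 0 in KO PCs, 7, 7 and 0 in WT VMs and 0 in every KO VM library. Its mean lay under 5 normalized counts in each comparison, so *Cnn1* entered no fit reported here, and its exact two-sided permutation p was 0.7 between KO and WT PCs and 0.4 in each comparison of PCs with VMs. Replicate 1 held the highest value of *Myh11*, *Acta2*, *Tagln* and *Cnn1* in both PC groups, and WT PC replicate 2 the lowest of *Myh11*, *Acta2* and *Tagln* in its group.

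*Rgs5* (ENSMUSG00000026678, chromosome 1, 169655501 to 169695813) had the highest average level of the 9, although per kilobase its KO VM mean of 54.5 was under that of *Acta2* at 71.1. *Rgs5* reached 672, 899 and 767 normalized counts for WT PCs, 1763, 1302 and 676 in KO PCs, 525, 250.4 and 527 in WT VMs and 58.0, 500 and 186 in KO VMs. Every PC library lay above every VM library, and KO VM replicate 1 was the lowest of all. *Pdgfrb* (ENSMUSG00000024620, chromosome 18, 61045150 to 61085061) followed *Rgs5* closely, with 18.3, 39.01 and 30.0 in WT PCs, 79.1, 31.6 and 22.7 in KO PCs, 15.0, 11.3 and 18.5 in WT VMs and 0, 6.42 and 2.31 in KO VMs. *Cspg4* (ENSMUSG00000032911, chromosome 9, 56865033 to 56899870) had 24.0, 31.2 and 24.3 in WT PCs, 38.67, 7.58 and 16.7 in KO PCs, 4.69, 9.41 and 9.61 in WT VMs and 7.07, 14.1 and 12.7 in KO VMs. In the WT the PC libraries lay above the VM libraries, whereas in the KO they overlapped.

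*Kcnj8* (ENSMUSG00000030247, chromosome 6, 142564837 to 142571614) had 44.0, 105 and 32.4 normalized counts for WT PCs, 86.1, 36.6 and 34.7 in KO PCs, 9.38, 9.41 and 11.1 in WT VMs and 2.83, 7.70 and 20.8 in KO VMs. All 6 PC libraries lay above all 6 VM libraries. *Notch3* (ENSMUSG00000038146, chromosome 17, 32120820 to 32166852) was close to the limit of detection, with 22, 3 and 16 raw counts for WT PCs, 9, 5 and 10 in KO PCs, 8, 4 and 7 in WT VMs and 0, 0 and 2 in KO VMs. Against the floor of 3 counts per library, the KO PC level of *Notch3* was at least 2.49-fold higher than that of KO VMs.

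**Figure D1:**
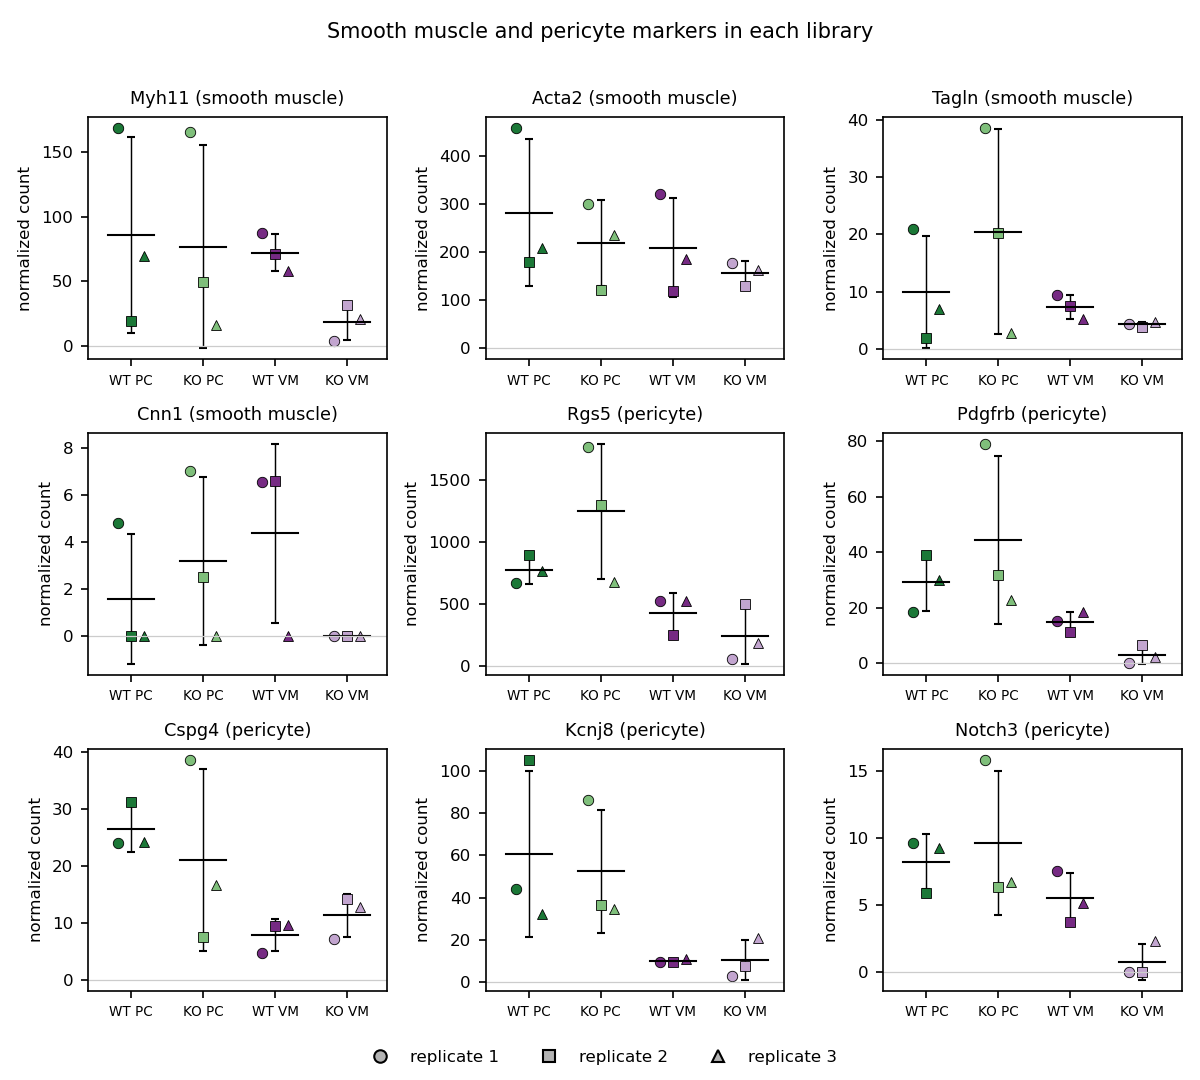
Normalized counts (TMM-scaled, linear axes) of the 9 markers in the 12 libraries, with the replicate number given by the symbol, the group mean by the horizontal bar and 1 SD by the whiskers (n = 3 per group). *Kcnj8* and *Rgs5* were higher in each PC library than in each VM library, and *Myh11* ranged from 4.24 to 32.1 in KO VMs against 58.4 to 87.2 in WT VMs.

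The first question was whether PCs and VMs of WT mice, the cell types that the reporter separates, differed in mural markers. In WT mice the pericyte markers *Kcnj8*, *Cspg4* and *Rgs5* were higher in PCs in all 3 libraries, and the smooth muscle markers overlapped. *Kcnj8* averaged 60.6 ± 39.2 in WT PCs and 9.96 ± 0.981 in WT VMs (SD, n = 3), a fitted log2 difference of 2.52 (SE 0.562). *Cspg4* averaged 26.5 ± 4.09 and 7.91 ± 2.79 (SD, n = 3), a log2 difference of 1.68 (SE 0.571), and *Rgs5* 779 ± 114 and 434 ± 159 (SD, n = 3), a log2 difference of 0.81 (SE 0.304). In edgeR's quasi-likelihood test these 3 of the 8 markers tested had an unadjusted p-value under 0.05 (0.00150 for *Kcnj8*, 0.0162 for *Cspg4* and 0.0258 for *Rgs5*), beside 5.14% of all genes that were higher in PCs at that threshold. After Benjamini-Hochberg adjustment over 11822 genes edgeR's quasi-likelihood test left 0 of the 8, where 0.11% of all genes passed. DESeq2's Wald test left 1, *Kcnj8*, where 115 of 11766 genes passed. With sample quality weights limma voom left *Kcnj8* as well, where 130 of 11822 genes passed. Values did not overlap for 3 of 9 markers, beside 7.29% of all tested genes that were higher in PCs without overlap, and the exact two-sided permutation test gave p = 0.1 for each, the smallest that 3 against 3 libraries allow. Without WT PC replicate 2, *Kcnj8* passed the adjustment in edgeR's quasi-likelihood test with a log2 difference of 1.91, where 108 of 12139 genes passed.

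The fitted log2 difference of *Myh11* between WT PCs and WT VMs was 0.26 (SE 0.615), that of *Acta2* 0.42 (SE 0.447) and that of *Tagln* 0.51 (SE 0.855). All 3 turned negative when WT PC replicate 1 was left out, at -0.65, -0.12 and -0.57, so their direction rested on that library. The mean of log2(normalized count + 2) over the 4 smooth muscle markers, *Cnn1* included, differed by -0.14 with all libraries in, opposite in sign to the 3 fitted differences. *Pdgfrb* at 0.90 (SE 0.529) and *Notch3* at 0.59 (SE 0.737) did not reach the unadjusted threshold.

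The same question was put to the KO, whose libraries are all different from those of the WT comparison. In KO mice *Rgs5* averaged 1247 ± 545 in PCs and 248 ± 227 in VMs (SD, n = 3), and *Pdgfrb* 44.5 ± 30.3 and 2.91 ± 3.25 (SD, n = 3). The fitted log2 difference was 2.32 (SE 0.475) for *Rgs5*, a 4.98-fold higher level in KO PCs, and 3.80 (SE 0.750) for *Pdgfrb*. Both passed edgeR's quasi-likelihood test (Benjamini-Hochberg), with an adjusted p of 0.0292 for *Rgs5* and 0.0260 for *Pdgfrb*, and were 2 of the 6 markers tested, beside 0.872% of all genes. In KO VMs *Pdgfrb* had 0, 5 and 2 raw counts, with 2 of 3 libraries at the floor. *Pdgfrb* passed the filter on low counts only through the KO PC libraries. Its call is therefore not independent of its high KO PC values, and the size of its difference is poorly measured. *Kcnj8* averaged 52.5 ± 29.1 in KO PCs and 10.5 ± 9.32 in KO VMs (SD, n = 3), a log2 difference of 2.23 (SE 0.573) that missed the threshold (adjusted p = 0.0928 in edgeR's quasi-likelihood test, Benjamini-Hochberg). *Tagln*, at 2.15 (SE 0.868), had an unadjusted p of 0.0247 in the same fit, so 4 of the 6 were under 0.05 before adjustment, beside 7.11% of all genes that were higher in KO PCs at that threshold. *Tagln* too had 2 of 3 KO VM libraries at the floor, with 3, 3 and 4 raw counts. With means of 20.5 in KO PCs and 4.24 in KO VMs, it also passed the filter only through the KO PC libraries. *Acta2* differed by 0.48 (SE 0.264) and *Cspg4* by 0.82 (SE 0.637), and *Myh11*, described without a test, by 1.91 (SE 0.691). Without KO PC replicate 1 the difference was 0.70 for *Myh11*, 0.14 for *Cspg4*, 0.21 for *Acta2* and 1.30 for *Tagln*.

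Values of 4 of 9 markers, namely *Rgs5*, *Pdgfrb*, *Kcnj8* and *Notch3*, were higher in each KO PC library than in any KO VM library, beside 8.66% of all genes tested (exact two-sided permutation test, p = 0.1 for each, the smallest possible). *Notch3* and *Cnn1* were not among the genes tested, so that share does not cover them. The calls depended on single libraries and on the fit, since 0 markers passed when all 12 libraries shared 1 estimate of the spread and 1 passed in limma voom. The number over all genes moved too, at 1 in that joint fit and 75 in voom, against 94 as reported. DESeq2's Wald test also called 2, but with *Kcnj8* in place of *Rgs5*, and *Kcnj8* passed too with no filter on low counts and without KO PC replicate 3. Over all genes these settings called 135, 326 and 150, in that order. Without KO PC replicate 1, KO PC replicate 2, KO VM replicate 1 or KO VM replicate 3 the number of markers past the adjustment was 0. Over all genes it was 37, 46, 19 and 20 without these libraries, in that order. The log2 difference of *Rgs5* stayed between 1.83 and 3.32 and that of *Pdgfrb* between 3.13 and 4.95 over all 6 omissions.

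Over both genotypes, an additive fit of genotype and cell type to all 12 libraries, added after the data were seen, gave a PC over VM log2 difference of 2.40 (SE 0.436) for *Kcnj8*, a 5.29-fold higher level in PCs. *Kcnj8* was the 1 marker of 7 tested that passed, with an adjusted p of 0.00987 in edgeR's quasi-likelihood test (Benjamini-Hochberg), beside 1.28% of all genes. It stayed under 0.05 in each of the 12 fits of edgeR's quasi-likelihood test that left out 1 library (Benjamini-Hochberg adjusted p 0.00198 to 0.0405). All 5 pericyte markers had an unadjusted p under 0.05 in that test and were higher in PCs, beside 8.72% of all genes, with log2 differences of 2.09 (SE 0.590) for *Pdgfrb*, 1.59 (SE 0.676) for *Notch3*, 1.57 (SE 0.416) for *Rgs5* and 1.28 (SE 0.432) for *Cspg4*. *Tagln* at 1.30 (SE 0.653) and *Acta2* at 0.46 (SE 0.278) did not reach that threshold. Of the 5 pericyte markers, *Notch3* was at the floor in every KO VM library and *Pdgfrb* in 2 of 3. Between WT PCs and WT VMs their unadjusted p in edgeR's quasi-likelihood test was 0.444 and 0.124. Without WT PC replicate 2, the library with the highest share of unaligned pairs, 3 markers passed the adjustment, *Kcnj8*, *Rgs5* and *Pdgfrb*. Over all genes the number rose as well, to 404 of 11375 from 145 of 11323 with all libraries in. The additive fit includes the libraries of both comparisons above and is not separate evidence.

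**Figure D2:**
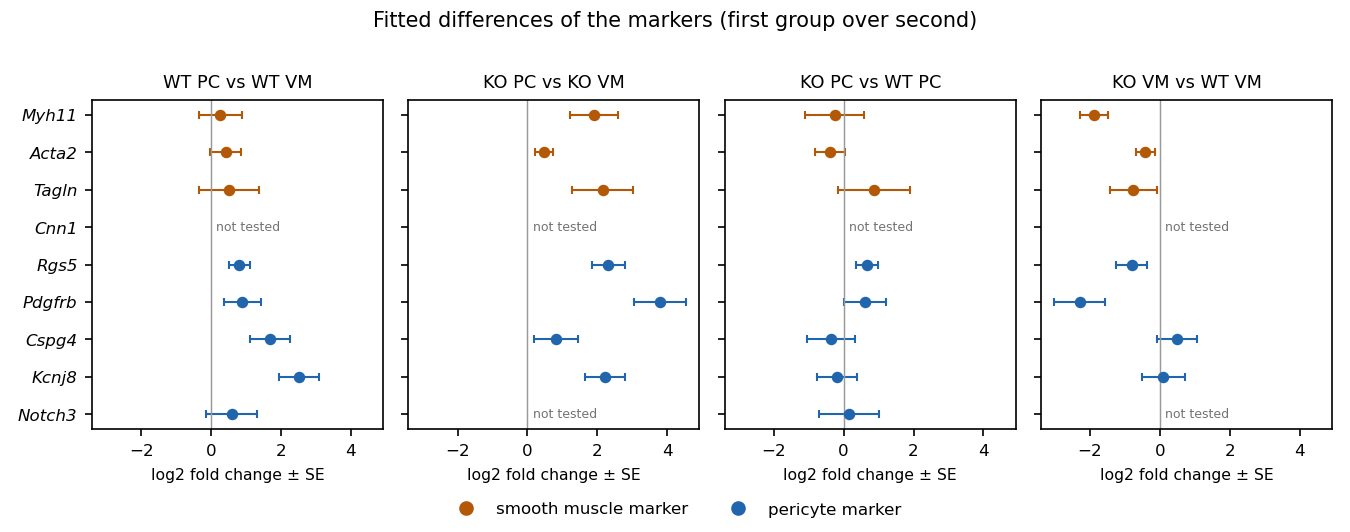
Fitted log2 differences (edgeR, first group over second, with SE) of the 9 markers in the 4 comparisons of 6 libraries each, where "not tested" marks genes whose mean was at or under 5 normalized counts. The tested pericyte markers lie to the right of 0 in both comparisons of PCs with VMs, from 0.59 to 2.52 in the WT and from 0.82 to 3.80 in the KO, and the KO VM panel is a description. The 3.80 is that of *Pdgfrb*, with 2 of 3 KO VM libraries at the floor.

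The genotype comparison in PCs asked whether loss of NCAM-1 changed these genes in the conduction system. None of the 9 markers separated KO from WT PCs. Few of all genes separated these groups either, so this count does not show that the markers were unchanged. In edgeR's quasi-likelihood test 0 of 8 markers had an unadjusted p under 0.05, beside 3.22% of all genes, and 0 passed Benjamini-Hochberg adjustment, with the same counts of 0 in DESeq2's Wald test and 1 unadjusted and 0 adjusted in limma voom. Over all genes 560 of 11685 had an unadjusted p under 0.05 in DESeq2's Wald test and 503 of 11754 in voom. *Rgs5* came nearest, with 1247 ± 545 in KO PCs against 779 ± 114 in WT PCs (SD, n = 3), a log2 difference of 0.67 (SE 0.319). Its exact two-sided permutation p was 0.3, and edgeR's unadjusted p was 0.0610. The other fitted differences were 0.88 (SE 1.03) for *Tagln*, 0.60 (SE 0.602) for *Pdgfrb*, 0.15 (SE 0.853) for *Notch3*, -0.19 (SE 0.569) for *Kcnj8*, -0.26 (SE 0.837) for *Myh11*, -0.36 (SE 0.675) for *Cspg4* and -0.39 (SE 0.429) for *Acta2*. Groups overlapped for 9 of 9 markers, while 4.82% of all tested genes were higher and 4.7% lower in KO PCs without overlap. KO PC replicate 1 was the highest of its group for all 9 markers and the highest of all 12 libraries for 6, and without it the log2 difference of *Pdgfrb* was -0.07, that of *Notch3* -0.35 and that of *Tagln* 0.084. Without WT PC replicate 2 the difference of *Kcnj8* was 0.39 and that of *Notch3* -0.04. In that fit 1 marker had an unadjusted p under 0.05 in edgeR's quasi-likelihood test, beside 462 of 12037 genes.

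In VMs *Myh11* was the value that led to this choice of genes. The KO VM and WT VM libraries are those of the comparisons with PCs, so the values are not independent of them. It averaged 72.4 ± 14.4 in WT VMs and 19.1 ± 14.01 in KO VMs (SD, n = 3), a fitted log2 difference of -1.90 (SE 0.402). The lowest WT VM library, 58.4, lay above the highest KO VM library, 32.1. With 1 library left out at a time the difference ran from -2.43 to -1.46. *Pdgfrb* averaged 14.9 ± 3.60 in WT VMs and 2.91 ± 3.25 in KO VMs (SD, n = 3), a difference of -2.30 (SE 0.725) that rested on 53 raw counts in WT and 7 in KO. *Tagln* differed by -0.77 (SE 0.668) on 25 and 10 raw counts, and *Rgs5* by -0.81 (SE 0.445). *Acta2* differed by -0.42 (SE 0.268), and by 0.01 without WT VM replicate 1, *Kcnj8* by 0.09 (SE 0.614) and *Cspg4* by 0.50 (SE 0.569).

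In all, 4 of 9 markers, *Myh11*, *Tagln*, *Pdgfrb* and *Notch3*, were lower in every KO VM library than in every WT VM library, where 5.03% of the genes past the filter were, a count from the comparison that chose the list. *Notch3* and *Cnn1* did not pass that filter. *Notch3* was at least 1.42-fold higher in WT VMs than the floor in KO VMs. *Acta2*, which is far better counted than these, overlapped, and so did *Rgs5*, *Kcnj8* and *Cspg4*. KO VM replicate 1 held the lowest value of the 12 libraries for 6 of the 9 markers, with *Cnn1* and *Notch3* tied at 0 with other libraries. Without KO VM replicate 1 the log2 difference of *Myh11* was -1.46 and that of *Rgs5* -0.36.

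The markers were also set against the sum of 10 endothelial genes, which mark the vessel lining, a scale added after the data were seen. Per 100 endothelial normalized counts, *Myh11* stood at 13.2, 20.9 and 16.4 in WT VM replicates 1, 2 and 3 and at 3.70, 7.72 and 6.12 in those of KO VMs. The means were 16.8 ± 3.87 and 5.85 ± 2.02 (SD, n = 3), a description of the same counts that chose the list. *Myh11* in PCs, at 8.60 ± 6.90 for WT and 5.23 ± 2.78 for KO (SD, n = 3), overlapped. *Rgs5* per 100 endothelial counts was 100.1 ± 41.5 in WT VMs, 75.2 ± 38.95 in KO VMs, 85.0 ± 23.0 in WT PCs and, for KO PCs, 109 ± 22.7 (SD, n = 3), and all 4 groups overlapped. The 5 pericyte markers together, of which *Rgs5* makes up most, ran from 84.0 ± 37.2 in KO VMs to 120 ± 21.6 in KO PCs (SD, n = 3). The 4 smooth muscle markers together, most of them *Acta2*, stood at 64.0, 59.9 and 69.7 in WT VM replicates 1, 2 and 3. In those of KO VMs they stood at 162, 39.5 and 55.4. The means were 64.5 ± 4.93 in WT VMs and 85.6 ± 66.4 in KO VMs (SD, n = 3). The higher KO VM mean rested on replicate 1, while KO VM replicates 2 and 3 lay under every WT VM library. *Myh11* per 100 *Rgs5* counts was 18.8 ± 8.94 in WT VMs and 8.31 ± 2.53 in KO VMs (SD, n = 3), with the lowest WT VM library at 11.1 and the highest KO VM library at 11.2.

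**Figure D3:**
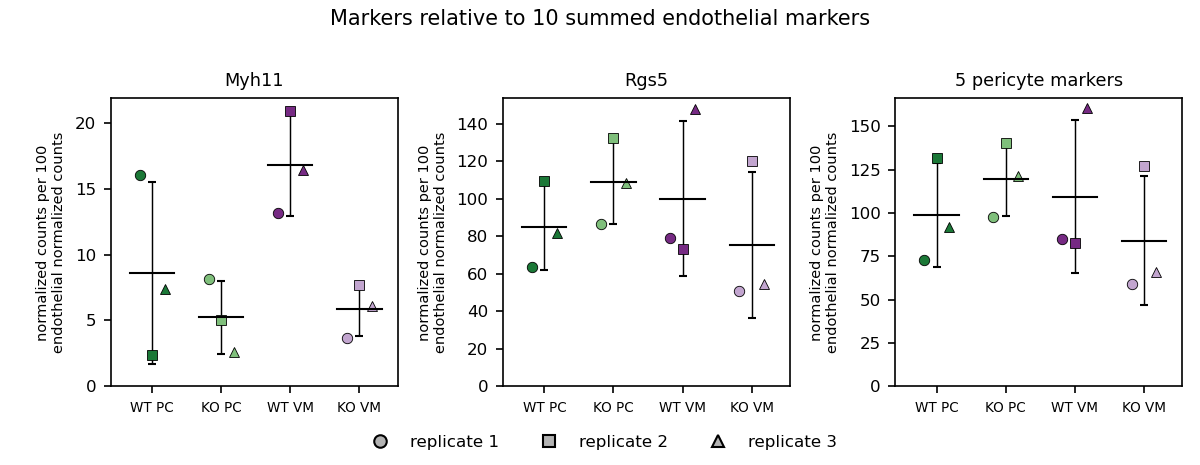
*Myh11*, *Rgs5* and the 5 summed pericyte markers as normalized counts per 100 normalized counts of 10 summed endothelial markers, by library, with group mean and SD (n = 3) and linear axes from 0. *Myh11* lies at 13.2 to 20.9 in WT VMs and 3.70 to 7.72 in KO VMs, a description of the counts that chose the list, and *Rgs5* and the pericyte sum overlap in all groups.

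Markers of other cells of the heart moved with the pericyte genes. Summed over 10 genes, endothelial markers ranged from 821 to 1053 in WT PCs, 624 to 2034 in KO PCs, 343 to 662 in WT VMs and 115 to 416 in KO VMs. The 8 fibroblast markers ranged from 728 to 1703, 676 to 1011, 232 to 403 and 66.5 to 322 in the same order. The 8 leukocyte markers ranged from 339 to 843, 300.0 to 384, 85.8 to 181 and 17.0 to 103. PC libraries lay above VM libraries of the same genotype for all 3 lists, as they did for the pericyte sum, which ranged from 768 to 1081 in WT PCs, 757 to 1983 in KO PCs, 284 to 572 in WT VMs and 67.9 to 528 in KO VMs. The sums of the 4 smooth muscle markers, 201 to 652, 193 to 510, 205 to 424 and 164 to 189, overlapped between WT PCs and WT VMs, while in the KO the lowest PC library at 193 lay just above the highest VM library at 189. KO VM replicate 1 was the lowest of the 12 libraries for the pericyte, endothelial, fibroblast and leukocyte sums. The part of these other cells in the differences of the mural markers was not tested.

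In KO PCs against KO VMs 3 of 10 endothelial, 4 of 7 tested fibroblast and 1 of 5 tested leukocyte markers were higher past edgeR's quasi-likelihood test (Benjamini-Hochberg), where 0.872% of all genes were called, and in the WT comparison 0 of each were, where 0.11% of all genes were called. At an unadjusted p under 0.05 the WT comparison had 4 of 10, 4 of 7 and 5 of 6 higher, beside 5.14% of all genes. In the KO comparison *Cdh5*, the cadherin of endothelial junctions, was 2.30 higher in PCs (SE 0.335) and *Dcn*, the decorin of fibroblasts, 1.98 higher (SE 0.352), on the log2 scale. The others that passed were *Pecam1* and *Flt1* of the endothelium, *Lum*, *Pdgfra* and *Dpt* of fibroblasts and *Lyz2* of leukocytes. The Purkinje cell list summed to 242 to 2723 in PCs and 52.7 to 68.8 in VMs, and *Cntn2*, *Etv1*, *Slit2* and *Scn10a* of its 6 genes passed the same test in both genotypes. *Cntn2*, whose regulatory sequence drives the GFP, stood at 237, 451 and 533 for WT PCs and 38.67, 49.2 and 452 for KO PCs. KO PC replicate 1, the richest in mural markers, was the poorest of the PC libraries in *Cntn2*. By the sum of the Purkinje cell list KO PC replicate 2 was the poorest, at 242 against 272 in replicate 1.

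**Figure D4:**
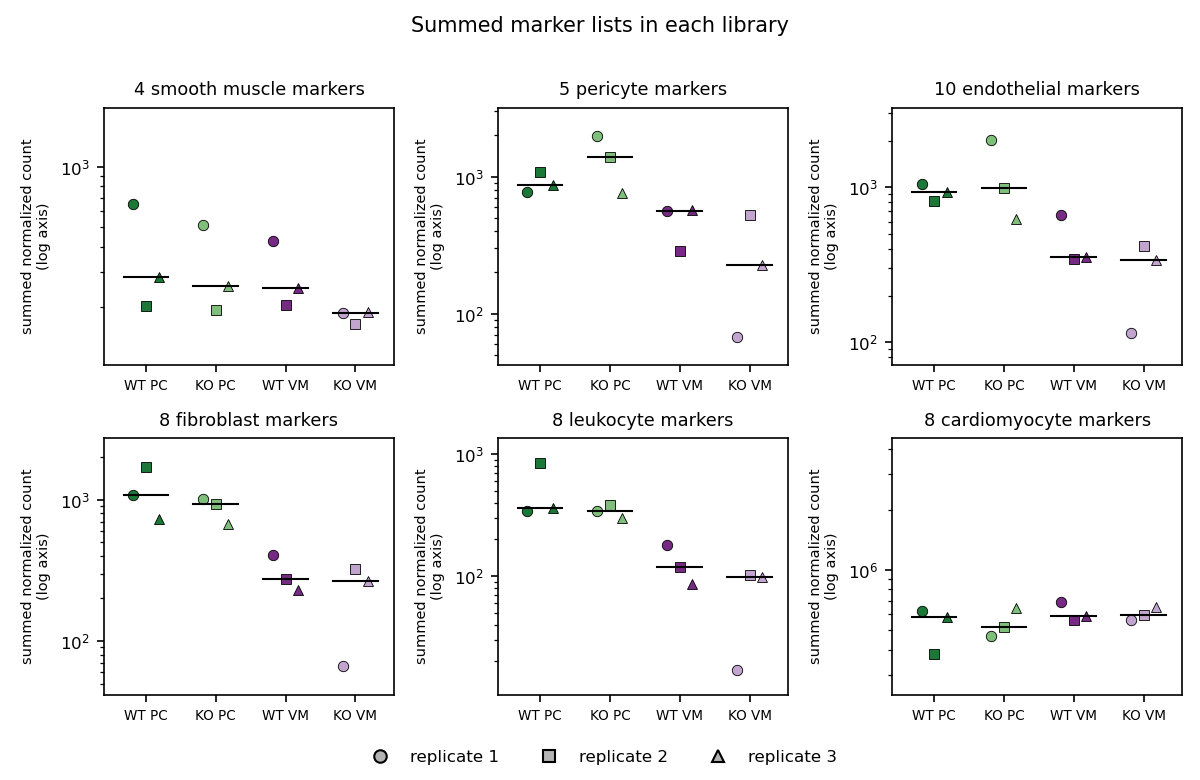
Summed normalized counts (log axes) of 6 marker lists in each library, with symbols for replicates and bars for group medians (n = 3). Pericyte, endothelial, fibroblast and leukocyte sums lie higher in PCs than in VMs of either genotype, smooth muscle sums overlap in the WT and lie close together in the KO (lowest PC library 193, highest VM library 189), and cardiomyocyte sums stay between 379500 and 689400.

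Across the 12 libraries the pericyte markers varied together more closely than the smooth muscle markers did, but not once group means were removed. These correlations of log2(normalized count + 2) are descriptions, since the libraries share groups, scaling and depth. Among the 10 pairs of pericyte markers Pearson's r ran from 0.46 to 0.95 with a median of 0.77, among the 6 pairs of smooth muscle markers from 0.38 to 0.77 with a median of 0.60, and among the 20 pairs across the classes from -0.06 to 0.72 with a median of 0.35. After group means were removed the medians were 0.50 for pericyte pairs, 0.53 for smooth muscle pairs and 0.15 for pairs across. The closest pair was *Rgs5* with *Pdgfrb* (r = 0.95, Spearman's rho = 0.98, and r = 0.90 after group means were removed). *Tagln* followed *Cnn1* (r = 0.77) and *Myh11* (r = 0.75), and its highest value with a pericyte marker was 0.58, with *Notch3*. *Myh11* reached 0.72 with *Notch3*, the highest value across the classes. *Acta2* was closest to *Notch3* (r = 0.59, rho = 0.76), ahead of its own class, with r of 0.47 with *Myh11*, 0.41 with *Tagln* and 0.38 with *Cnn1*. *Myh11* was also closer to *Pdgfrb* and *Rgs5* (r = 0.64 each) than to *Acta2*. The pericyte sum followed the endothelial sum with r = 0.94 (rho = 0.92, and r = 0.84 without group means), and the smooth muscle sum followed it with r = 0.62. The pericyte sum also followed the fibroblast sum (r = 0.90, and 0.81 without group means) and the leukocyte sum (r = 0.88, and 0.74 without group means).

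**Figure D5:**
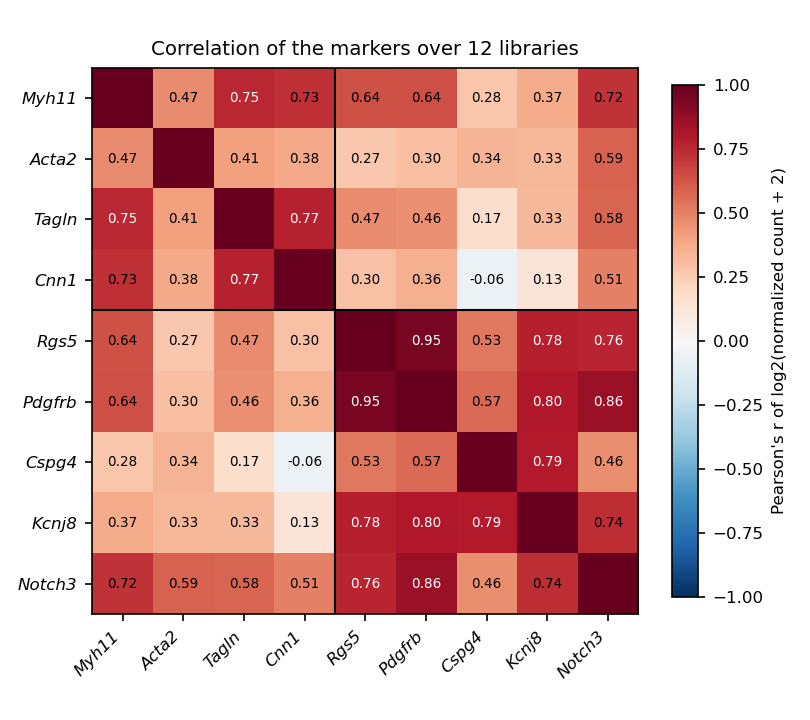
Pearson's r of log2(normalized count + 2) for each pair of the 9 markers over the 12 libraries, with lines between the 4 smooth muscle and the 5 pericyte genes. Values within the pericyte block run from 0.46 to 0.95 and those across the blocks from -0.06 to 0.72.

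Among 8100 genes with a mean above 20 normalized counts, those most like *Rgs5* over the 12 libraries were *Cald1* (r = 0.95), *Cav1* (r = 0.95), *Tspan13* (r = 0.95), *Adgrf5* (r = 0.95) and *Prex2* (r = 0.95). Those most like *Myh11* were *Cebpg* (r = 0.93), *Lyve1* (r = 0.85), *1600012H06Rik* (r = 0.84), *Jcad* (r = 0.84) and *Sp100* (r = 0.83). None of the other mural markers was among the 5 closest to *Myh11* or to *Rgs5*, but *Tagln*, *Cnn1*, *Cspg4* and *Notch3* had means too low to be compared. *Pdgfrb* came close, with r = 0.948 with *Rgs5* against 0.949 for *Prex2*. *Cald1* is itself among the further smooth muscle genes described next.

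The other genes of the same programmes were taken from written lists. Of 16 further smooth muscle genes, 10 were tested in KO PCs against KO VMs and 1, *Cald1*, the actin-binding caldesmon, was higher by 1.91 on the log2 scale (SE 0.430, adjusted p = 0.0473 in edgeR's quasi-likelihood test, Benjamini-Hochberg). The median over the list was 0.94, beside 0.01 over all genes. In that comparison 0.872% of all genes passed. In WT PCs against WT VMs 3 of 11 were higher at an unadjusted p under 0.05, beside 5.14% of all genes, and 0 passed the adjusted threshold, with a median of 0.25. The 3 with the highest normalized counts, not corrected for length, *Pcp4l1*, *Synpo2* and *Smtn*, differed between KO PCs and KO VMs by -0.11 (SE 0.296), -0.04 (SE 0.190) and 0.60 (SE 0.309).

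Of 18 further pericyte genes, 14 were tested in KO PCs against KO VMs. *Gucy1a1*, a subunit of the nitric oxide receptor guanylate cyclase, was the 1 that passed, 2.60 higher (SE 0.487, adjusted p = 0.0189 in edgeR's quasi-likelihood test, Benjamini-Hochberg). Of all genes 0.872% passed there. *Gucy1a1* averaged 85.7 ± 39.2 in KO PCs and 13.6 ± 9.45 in KO VMs (SD, n = 3). The median of the list was 1.51 in the KO and 0.56 in the WT, where 3 of 15 were higher at an unadjusted p under 0.05, beside 5.14% of all genes. The abundant *Art3* and *Agtr1a* differed in the KO by 0.19 (SE 0.192) and -0.02 (SE 0.219).

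The KATP channel gives a contrast between subunits. KCNJ8 pairs with the sulphonylurea receptor SUR2, the product of *Abcc9*, in mural cells, and in cardiomyocytes *Abcc9* and *Kcnj11* are both used. *Kcnj8* was higher in PCs over both genotypes, whereas *Abcc9* differed between PCs and VMs by -0.25 (SE 0.198) in the WT and -0.04 (SE 0.137) in the KO, and *Kcnj11* by -0.26 (SE 0.313) and -0.07 (SE 0.229). *Abcc8* differed by -0.89 (SE 0.592) and 0.06 (SE 0.243). Per kilobase of exon *Abcc9* averaged 467 normalized counts over the 12 libraries, *Kcnj11* 30.8 and *Kcnj8* 13.1.

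Of 12 PDGF and Notch genes around the receptors PDGFRB and NOTCH3, 11 were tested in the WT PC against VM comparison and 10 in that of the KO, with medians of 0.82 and 1.12. *Pdgfra*, the related receptor found on fibroblasts and also counted among the fibroblast markers above, was higher in KO PCs past the adjustment (log2 difference 2.49, SE 0.485, adjusted p = 0.0247 in edgeR's quasi-likelihood test, Benjamini-Hochberg). The ligand gene *Pdgfa* differed by 0.10 (SE 0.304) in the KO, the ligand gene *Pdgfd* by 0.34 (SE 0.380) and the Notch target *Hes1* by 0.42 (SE 0.331). *Pdgfb*, the ligand gene of PDGFRB, was higher in PCs by 2.39 (SE 1.01) in the WT and 2.72 (SE 1.02) in the KO. *Pdgfb* passed the adjustment in neither, and its means of 2.12 in WT VMs and 1.67 in KO VMs were near the floor. Among 11 regulators of the mural programme 0 of 9 tested passed the adjustment in either comparison in edgeR's quasi-likelihood test, with 2 in the WT and 3 in the KO higher at an unadjusted p under 0.05, beside 5.14% and 7.11% of all genes. *Myocd*, which encodes myocardin, *Srf* and *Mrtfb* are also expressed in cardiomyocytes, and between KO PCs and KO VMs they differed by 0.02 (SE 0.183), 0.16 (SE 0.253) and 0.39 (SE 0.217). Between KO and WT PCs none of these lists had a gene past the adjustment in edgeR's quasi-likelihood test or at an unadjusted p under 0.05, beside 0% and 3.22% of all genes.

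Of the markers 2 share exons with another annotated gene. *Tagln* overlaps *Pcsk7* on the opposite strand over 108 of its 1988 exon bases, and *Pcsk7* had up to 62 counts in a library. The GENCODE annotation also places the antisense gene *Gm48529* across *Tagln*, and 58.3% of the 50-base windows of *Tagln* occur in *Gm48529* or *Pcsk7* on one strand or the other. *Notch3* shares 488 of 8089 exon bases with the antisense gene *Gm17276*, which had up to 6 counts, and 4.93% of its windows occur in *Gm17276* or *Gm30232*. Whether counting used the strand is not given in the sources used here, so reads of these genes and of their antisense partners cannot be told apart. For *Myh11* 0.34% of the 50-base windows, shared with *Myh9* and *Myh10*, and for *Acta2* 0.326%, shared with *Actg1* and actin pseudogenes, occur in another gene, and for the other 5 markers none does. Of 11 paralogs of the markers 9 were tested in KO PCs against KO VMs, where *Actb*, the cytoplasmic beta-actin, and *Tagln2* were 2.0-fold and 4.66-fold higher and passed edgeR's quasi-likelihood test (Benjamini-Hochberg adjusted p = 0.0263 and 0.0417).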

How the data were processed

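The deposited files hold raw counts per gene, 1 file per library. Replicate numbers are those of the sample titles. The source names number the WT replicates differently, so which KO and WT libraries share a number depends on that choice. Per the labels and the study's methods, the authors made NuGEN Ovation Trio libraries, sequenced 50-base paired reads, aligned them to mm10 with STAR 2.5.0c and counted on the GRCm38.74 annotation with HTSeq 0.6.0. Whether counting used the strand is not given in the sources used here. HTSeq's summary lines stayed out of library sizes and gave just the share of unaligned pairs. Symbols and positions came from GENCODE M21 (382 listed identifiers had no entry).

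Counts were scaled by TMM to the geometric mean of the effective library sizes (normalized counts). For each comparison of 6 libraries, genes with a mean above 5 normalized counts were tested with the quasi-likelihood test of edgeR 4.0.16 in R 4.3.3, two-sided, with p-values of all tested genes adjusted by Benjamini-Hochberg and a threshold of 0.05. Single genes were also compared by the exact two-sided permutation test on log2(normalized count + 2) with scipy 1.17.1. Alternatives used DESeq2 1.42.0, voom in limma 3.58.1, other filters and scalings, a replicate block, a joint fit of the 12 libraries, and each library left out. The fits were tested on simulated data with 200 changed genes. No 2 libraries of a group agreed within sampling noise (smallest chi-square per degree of freedom 7.03). The members and all lists were chosen with earlier results of these data known. Named in the text are the members, the 5 genes most like *Myh11* and *Rgs5*, and genes that overlap a member. Genes of each other list were named that passed the adjusted threshold or were among its 3 most abundant (all counted, only some printed). *Cntn2* and *Ncam1* were named as checks of the sort and the genotype, and *Pdgfb* as the ligand gene of PDGFRB. Promoters came from RefSeq, with entries for 6 of 9 members.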

Additional observations from a re-analysis of the deposited data

How the results depend on the processing

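Among the settings that kept all libraries, voom and the replicate block turned the sign of a marker's difference. Between KO and WT PCs limma voom with sample quality weights gave a log2 difference of 0.22 for *Kcnj8* and -0.16 for *Notch3*, and the replicate block gave -0.11 for *Myh11* between WT PCs and WT VMs and -0.11 for *Kcnj8* between KO and WT VMs. The number of markers past the unadjusted threshold between KO and WT PCs was 1 with no filter on low counts and 1 in voom, against 0. Over all genes it was 1126 and 503, against 378. Between WT PCs and WT VMs the number past the adjusted threshold was 1 in DESeq2, 1 with no filter and 1 in voom, against 0. Over all genes it was 115, 297 and 130 in these settings, against 13. Between KO PCs and KO VMs the number of markers was 0 with all 12 libraries in 1 fit and 1 in voom, against 2. Over all genes it was 1 and 75, against 94. The cause of these moves was not tested.

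With each library left out in turn, the number past the adjusted threshold was 0 to 1 for WT PCs against WT VMs, 0 to 3 for KO PCs against KO VMs and 1 to 3 over both genotypes, and the number past the unadjusted threshold between KO and WT PCs was 0 to 1. Between KO and WT PCs the log2 difference ran from -1.44 to 0.66 for *Myh11*, -0.65 to 0.14 for *Acta2*, 0.084 to 1.96 for *Tagln* (0.16 in voom), -0.066 to 0.89 for *Pdgfrb*, -1.06 to 0.035 for *Cspg4*, -0.71 to 0.39 for *Kcnj8* and -0.35 to 0.36 for *Notch3*. Between WT PCs and WT VMs it ran from -0.65 to 0.71 for *Myh11*, -0.12 to 0.87 for *Acta2* and -0.57 to 0.92 for *Tagln*. Between KO and WT VMs *Pdgfrb* was at -3.44 without KO VM replicate 2 and *Kcnj8* at -0.89 without KO VM replicate 3.

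Over all genes, the number past the adjusted threshold ran over the alternatives from 0 to 132 between KO and WT PCs (0 as reported), 1 to 297 between WT PCs and WT VMs (13), 1 to 326 between KO PCs and KO VMs (94), 1 to 47 between KO and WT VMs (4) and 69 to 404 over both genotypes (145). The highest counts of the first 4 came with no filter on low counts.

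Libraries with the same replicate number deviated together with r of 0.21, 0.08 and 0.15 between WT PCs and WT VMs, -0.01, 0.12 and 0.02 between KO PCs and KO VMs, -0.01, 0.04 and 0.10 between KO and WT PCs and -0.07, -0.04 and 0.06 between KO and WT VMs, so the numbers were not taken to pair the libraries. In WT PCs and WT VMs each library nevertheless correlated best with its own number. With the replicate block 4, 121, 1 and 7 genes passed the adjusted threshold in these comparisons. Depth limits *Cnn1* and *Notch3*, which had 0 to 22 raw counts per library.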
